A study of Sus scrofa with 10 samples.

Results

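Tetraspanin transcripts were measured in alveolar macrophages, which engulf particles and microbes in the lung's air sacs, taken from 5 pigs of the Hampshire breed. The genes CD9, CD37, CD53, CD63, CD81, CD82, CD151, TSPAN3, TSPAN4 and TSPAN14 were sought by symbol in the array's probe-to-gene table. Of these 10 genes, 8 had at least 1 probe set, 11 probe sets in all, out of 13755 named genes and 47845 probe sets. CD82 and TSPAN4 had no probe set under those symbols and were not analysed here. Each pig gave 1 array of non-adherent cells and 1 of adherent cells (n = 5 each). All cells were thawed from frozen stocks and kept overnight in medium with human recombinant CSF-1, a macrophage growth factor, and all are labelled untreated at 0 h. The non-adherent cells were collected from suspension and sorted by flow cytometry for large size and high granularity. No sort is stated for the adherent cells, whose protocol text describes removal of attached cells and exposure to lipopolysaccharide despite the untreated label. Arrays of adherent cells were reused from an older series, so attachment, sort and array series cannot be told apart.

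Tetraspanins are small membrane proteins that cross the bilayer several times and expose a small and a large extracellular loop. They bind each other and partner proteins such as integrins, immunoglobulin-superfamily proteins and membrane proteases, and so gather them into microdomains at the cell surface and on endosomes. CD9, CD63 and CD81 are also widely used as markers of extracellular vesicles. In mice, CD9 and CD81 together restrain the fusion of macrophages into multinucleated giant cells in the lung.

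Every value is a deposited log2 probe set value, and differences are non-adherent minus adherent. A gene was called when its adjusted p was below 0.05 in the limma fit over all named genes, with Benjamini-Hochberg adjustment. Errors of differences are standard errors (SE) of that fit, and errors of means are SD. Array medians lay between 4.97 and 5.09. The adherent array of animal 1 stood apart, with a mean correlation of 0.961 with its group, against 0.9801 to 0.981 for the other adherent arrays and 0.984 to 0.987 for the non-adherent arrays. Of 11 measured macrophage markers, 9 lay above the median level of all probe sets, 5.02, and FABP4 and CHIT1 lay below it. The hybridisation control BioB-3 read 8.68 to 9.13 on the non-adherent arrays and 5.42 to 5.71 on the adherent arrays, whereas CreX-3 read 12.71 to 12.97 and 12.52 to 12.74. The part of these controls in any difference was not tested.

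CD81 and CD9 were lower in non-adherent cells, CD9 by only 1 of its 2 probe sets. CD63 was slightly lower, CD37 and TSPAN3 were higher, and CD53, CD151 and TSPAN14 were not called. Thus 5 of the 8 genes (62.5%) were called, 2 higher and 3 lower, whereas 16.5% of all named genes were called, 6.72% higher and 9.78% lower. The genes had been chosen with these results known, so their share is a description. The median log2 difference was -0.32 over the 8 genes and 0.01 over all genes. The groups did not overlap for those 5 genes, 2 higher and 3 lower, and 15.0% of all named genes had groups that did not overlap, 6.35% higher and 8.63% lower. The plot of values by array shows each animal's pair of arrays.

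**Figure D1:**
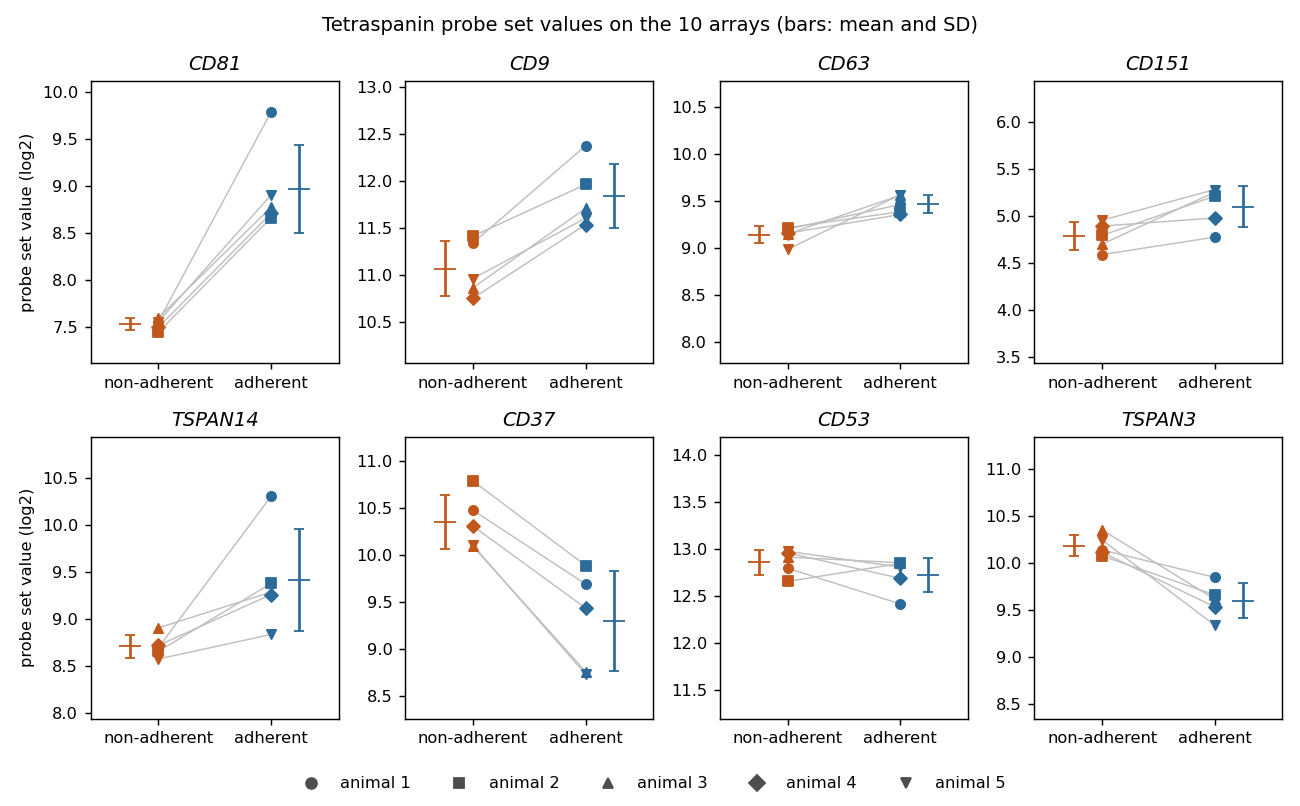
Each panel plots the log2 value of a tetraspanin's highest-mean probe set (vertical axis, 3 log2 units in every panel) on non-adherent and adherent arrays, with a grey line joining the arrays of 1 animal and side bars giving the mean and SD. All 5 CD81 and CD9 lines run lower on the non-adherent side, all 5 CD37 and TSPAN3 lines run higher on the non-adherent side, and CD53 crosses.

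CD81 binds immunoglobulin-superfamily partners in many kinds of cell. Its single probe set read 7.56, 7.45, 7.60, 7.50 and 7.56 in non-adherent animals 1 to 5, against 9.79, 8.66, 8.77, 8.71 and 8.91 in the adherent cells of the same animals. Every non-adherent value lay more than 1 log2 unit below every adherent value, and the non-adherent values lay close together. The means were 7.53 ± 0.06 in non-adherent cells and 8.97 ± 0.47 in adherent cells (SD, n = 5 each), a ratio of 0.370. The log2 difference of -1.44 ± 0.19 had an adjusted p of 0.000747 in limma and ranked 72 from the lowest among 13755 genes. CD81 was lower in 5 of 5 animals, with differences of -2.23 in animal 1 and of -1.35 to -1.18 in the others. Without the adherent array of animal 1 the difference was -1.23, with a limma adjusted p of 1.4e-05, and the adherent mean was 8.76 with an SD of 0.105. These arrays cannot separate fewer cells that carry a transcript from less transcript per cell, which holds for every gene described here.

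CD9 shares partner proteins with CD81 and is abundant on platelets and epithelium as well as on macrophages. Its main probe set read 11.34, 11.41, 10.86, 10.75 and 10.96 in non-adherent animals 1 to 5, against 12.38, 11.96, 11.71, 11.54 and 11.61 in adherent cells. The groups did not overlap, although the highest non-adherent value lay close to the lowest adherent one. Animals 1 and 2 had the highest values in both groups. The log2 difference was -0.77 ± 0.18 (limma adjusted p = 0.0154), with means of 11.07 ± 0.29 in non-adherent cells and 11.84 ± 0.34 in adherent cells (SD, n = 5 each), and 5 of 5 animals were lower. The call was lost without animal 3 (limma adjusted p = 0.0698) or animal 5 (0.0527).

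The other CD9 probe set gave another picture. It read 10.49, 10.69, 10.39, 10.09 and 10.45 in non-adherent animals 1 to 5, against 10.89, 10.65, 10.32, 10.26 and 10.26 in adherent cells. These groups overlapped, and 3 animals were higher and 2 lower. Its log2 difference was -0.05 ± 0.15, with a limma adjusted p of 0.854 over all probe sets, of which 10.8% were called. The within-array difference of the main and the other CD9 probe set averaged 0.65 ± 0.16 in non-adherent cells and 1.36 ± 0.08 in adherent cells (SD, n = 5 each). The gap of -0.72 between these means had p = 0.00794 in a 2-sided exact permutation test over 252 arrangements. That was the smallest p this test allows, and it became 0.0238 when adjusted over the 3 genes with 2 probe sets. The arrangements ignored the pairing of arrays by animal. With the mean of both probe sets, CD9 differed by -0.41 and was not called (limma adjusted p = 0.108). The fall of CD9 is therefore a measurement of 1 of its 2 probe sets.

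CD63, a tetraspanin of late endosomes, lysosomes and extracellular vesicles, had a small difference. Its single probe set read 9.20, 9.22, 9.15, 9.16 and 8.99 in non-adherent animals 1 to 5, against 9.47, 9.39, 9.56, 9.36 and 9.57 in adherent cells. The groups did not overlap, and animal 5 had both the lowest non-adherent and the highest adherent value. The differences within animals ranged from -0.58 in animal 5 to -0.17 in animal 2. The log2 difference was -0.33 ± 0.08, with a limma adjusted p of 0.0197 and a ratio of 0.798, and 5 of 5 animals were lower. With the animal as a block the limma adjusted p was 0.0538, and CD63 was not called. It was also lost without the adherent array of animal 3 (adjusted p = 0.0504) and without both arrays of animal 3 (0.0945) or animal 5 (0.103).

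CD151 binds laminin-binding integrins, and TSPAN14 belongs to the subgroup that escorts the protease ADAM10 to the cell surface. TSPAN14 read 8.70, 8.66, 8.91, 8.72 and 8.58 in non-adherent animals 1 to 5, against 10.31, 9.38, 9.29, 9.26 and 8.84 in adherent cells. All 5 animals were lower, but the groups overlapped, because adherent animal 5 read below non-adherent animal 3. The log2 difference of -0.70 ± 0.22 had a limma adjusted p of 0.0511. With the animal as a block it was called (adjusted p = 0.0424). Without the adherent array of animal 1 the difference was -0.48 and was called (adjusted p = 0.0159), with an adherent SD of 0.242 in place of 0.541.

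Both CD151 probe sets had means over the 10 arrays below the median level of all probe sets, whereas the main probe sets of the other 7 genes lay above it. The main CD151 probe set read 4.59, 4.79, 4.70, 4.89 and 4.95 in non-adherent animals 1 to 5, against 4.77, 5.21, 5.25, 4.98 and 5.28 in adherent cells. The values were lower in 5 of 5 animals with overlapping groups, and the log2 difference of -0.31 ± 0.12 was not called (limma adjusted p = 0.0938). It was called without the adherent array of animal 1 (-0.40, adjusted p = 0.0192), without both arrays of animal 1 (-0.35, adjusted p = 0.0417) and with array weights (-0.36, adjusted p = 0.0256). The other CD151 probe set differed by 0.09 ± 0.11 in the opposite direction (limma adjusted p = 0.618), and the mean of both by -0.11 (adjusted p = 0.426). The within-array difference of the 2 probe sets averaged 0.54 ± 0.25 in non-adherent cells and 0.95 ± 0.22 in adherent cells (SD, n = 5 each), with p = 0.0397 in the exact permutation test and 0.0596 adjusted over 3 genes.

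CD37 and CD53 are the leukocyte tetraspanins, CD53 on most leukocytes and CD37 mainly on B cells and antigen-presenting cells. The main CD37 probe set read 10.48, 10.79, 10.09, 10.31 and 10.10 in non-adherent animals 1 to 5, against 9.69, 9.89, 8.76, 9.44 and 8.73 in adherent cells. Every non-adherent value was higher than every adherent value, and animals 3 and 5 had the lowest values in both groups. The means were 10.36 ± 0.29 in non-adherent cells and 9.30 ± 0.53 in adherent cells (SD, n = 5 each), a 2.07-fold higher level. The log2 difference was 1.05 ± 0.24 (limma adjusted p = 0.0127), and 5 of 5 animals were higher. CD37 was called in all 15 fits that left out an array or an animal, in which its adjusted p reached at most 0.0479.

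The other CD37 probe set read 10.09, 10.57, 9.84, 9.86 and 9.87 in non-adherent animals 1 to 5, against 9.75, 9.51, 9.01, 9.27 and 8.37 in adherent cells. Its groups did not overlap either, and its log2 difference was 0.86 ± 0.24 (limma adjusted p = 0.0446 over all probe sets). That call was lost in 12 of the 15 fits that left out an array or an animal, with a highest adjusted p of 0.133. The within-array difference of the 2 CD37 probe sets averaged 0.31 ± 0.10 in non-adherent cells and 0.12 ± 0.27 in adherent cells (SD, n = 5 each; exact permutation p = 0.214).

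CD53 read 12.80, 12.66, 12.92, 12.96 and 12.98 in non-adherent animals 1 to 5, against 12.42, 12.85, 12.86, 12.69 and 12.81 in adherent cells. The groups overlapped, with 4 animals higher and 1 lower. The log2 difference of 0.14 ± 0.11 was not called (limma adjusted p = 0.419), and its 95% interval ran from -0.10 to 0.37.

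TSPAN3, a broadly expressed member of the family, read 10.14, 10.08, 10.35, 10.12 and 10.25 in non-adherent animals 1 to 5, against 9.85, 9.66, 9.62, 9.53 and 9.34 in adherent cells. The groups did not overlap, and the per-animal differences ranged from 0.29 in animal 1 to 0.91 in animal 5. The log2 difference was 0.59 ± 0.10, a ratio of 1.502, with a limma adjusted p of 0.00368. TSPAN3 was called in all 15 fits that left out an array or an animal, in which its adjusted p reached at most 0.029.

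**Figure D2:**
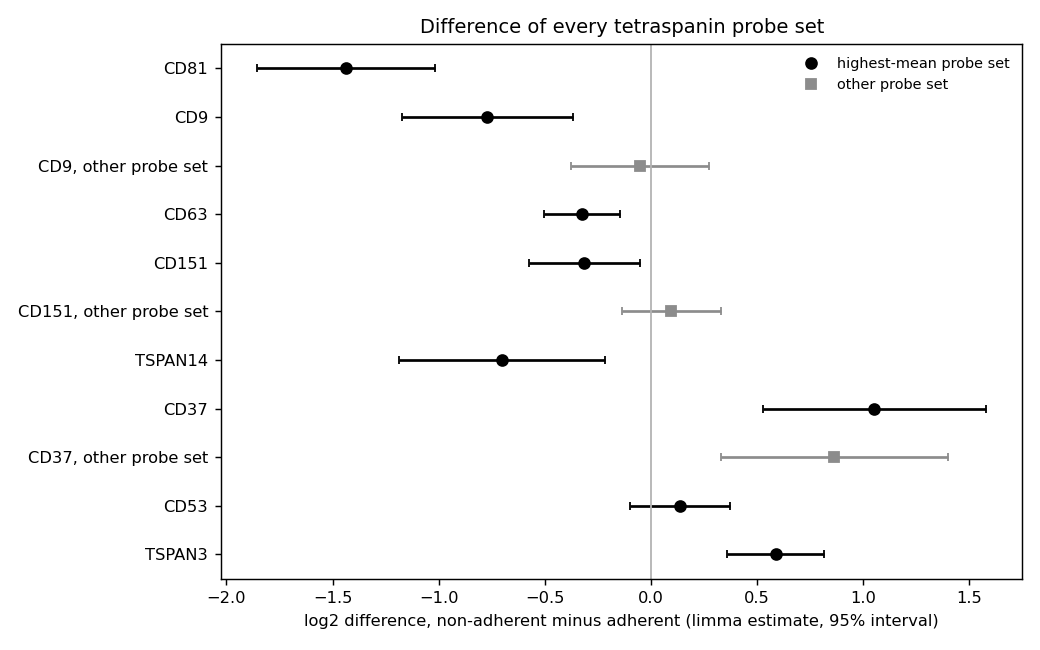
Points give the limma log2 difference, non-adherent minus adherent, of all 11 tetraspanin probe sets, with 95% intervals; black circles are highest-mean probe sets and grey squares the others. Both CD37 probe sets lie above 0, whereas the other CD9 probe set, at -0.05, and the other CD151 probe set, at 0.09, have intervals that cross 0.

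Differences between genes were tested on 3 pairs, using the difference of their values within each array. CD81 minus CD9 averaged -3.54 ± 0.32 in non-adherent cells and -2.87 ± 0.27 in adherent cells (SD, n = 5 each). CD81 was thus lower than CD9 by a further 0.665 log2 units in non-adherent cells, with p = 0.0238 in a 2-sided exact permutation test and 0.0317 adjusted over the 3 pairs. CD81 minus CD63 averaged -1.61 ± 0.13 in non-adherent cells and -0.50 ± 0.46 in adherent cells (SD, n = 5 each). That gap of -1.11 had an exact permutation p of 0.00794, or 0.0238 adjusted. CD37 minus CD53 averaged -2.51 ± 0.42 in non-adherent cells and -3.42 ± 0.63 in adherent cells (SD, n = 5 each). The gap of 0.915 had an exact permutation p of 0.0317, adjusted 0.0317, and the adjusted value was 0.0714 after quantile normalization. The size of the first gap depends on the CD9 probe set used, since CD81 minus CD9 gave -1.02 with the mean of both CD9 probe sets. Of 15 repeats that left out an array or an animal, the adjusted p was above 0.05 in 4 for CD81 minus CD9, in 3 for CD81 minus CD63 and in 7 for CD37 minus CD53, with highest values of 0.0857, 0.0857 and 0.114. The CD37 minus CD53 call was lost without the single non-adherent array of animal 1, 2 or 4 and without both arrays of animal 2, 3, 4 or 5. The CD81 minus CD9 call was lost without both arrays of animal 1, 3, 4 or 5, and the CD81 minus CD63 call without those of animal 3, 4 or 5. With both arrays of an animal left out, 70 arrangements remained in place of 252, so the smallest possible p was larger. A call lost in such a repeat need not mark dependence on that animal. The levels themselves cannot be compared between probe sets. A sign-flip test within animals cannot give an adjusted p below 0.0625 with 5 animals.

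The spread between animals was smaller in non-adherent than in adherent cells for 8 of 8 tetraspanins, against 60.2% of all genes. Without the adherent array of animal 1 it was smaller for 5 of 8 (62.5%), against 46.4% of all genes. That array held the highest adherent value for 4 genes (CD9, CD81, TSPAN3 and TSPAN14) and the lowest for 2 (CD53 and CD151). With it left out, 7 of the 8 genes were called, 2 higher and 5 lower, since TSPAN14 and CD151 joined the lower ones. Calls also rose over all named genes, from 2270 of 13755 with all arrays to 3067 in that fit.

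**Figure D3:**
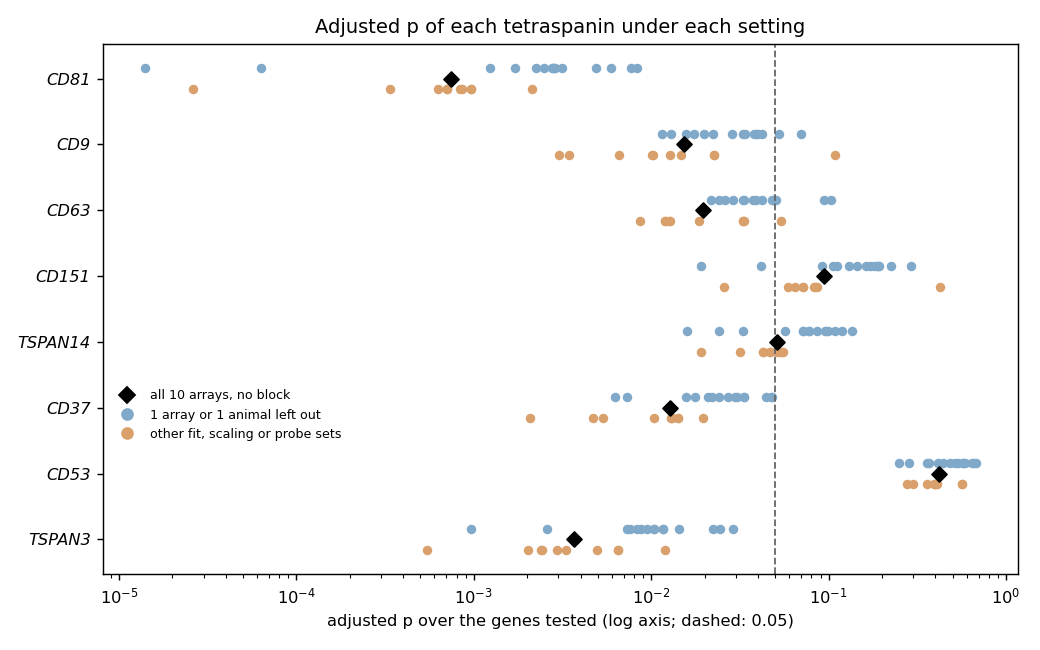
The horizontal log axis gives the limma adjusted p of each tetraspanin with all 10 arrays (black diamonds), with 1 array or 1 animal left out (blue) and under other fits, scalings or probe set summaries (orange), and the dashed line marks 0.05. CD81, CD37 and TSPAN3 lie left of the line under every setting shown and CD53 right of it, whereas CD9, CD63, CD151 and TSPAN14 lie on both sides.

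Other tetraspanins were mostly not called. Of 23 listed, 16 were measured, and 9 of these lay above the median level of all probe sets, against 7 of the 8 tetraspanins above. Among the 16, 1 was higher and 0 were lower (6.25% called, against 16.5% of all named genes), with a median log2 difference of 0.13. The higher gene was TSPAN6, which read 5.03, 4.92, 4.29, 4.50 and 4.18 in non-adherent animals 1 to 5, against 4.15, 4.28, 3.92, 3.94 and 3.78 in adherent cells. Its groups overlapped at a level below the median of all probe sets. Its log2 difference was 0.57 ± 0.17 (limma adjusted p = 0.0469), a call lost in 11 of the 15 fits that left out an array or an animal (highest adjusted p 0.128). It was also lost after quantile normalization (0.50, adjusted p = 0.0623) and when its 3 probe sets were averaged (0.26, adjusted p = 0.212).

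Of 27 listed partner proteins of tetraspanins, 23 were measured, of which 2 were higher, 5 were lower and 16 were not called. The called share was 30.4%, against 16.5% of all named genes, and the median log2 difference was -0.15. The count of called partners was 4 without animal 3 and 3 without animal 5. Those fits called 1119 and 1251 of all 13755 named genes, against 2270 with all arrays. PI4K2A, a phosphatidylinositol kinase found in tetraspanin complexes, averaged 9.22 ± 0.12 in non-adherent cells and 10.37 ± 0.21 in adherent cells (SD, n = 5 each). Its log2 difference of -1.15 ± 0.11 had a limma adjusted p of 0.000117. CXCR4, a chemokine receptor, averaged 10.95 ± 0.28 in non-adherent cells and 12.07 ± 0.31 in adherent cells, a difference of -1.12 ± 0.17 (limma adjusted p = 0.00168). Both stayed called whichever array or animal was left out.

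The remaining 3 lower partners, named after their values were seen, were EPCAM, VCAM1 and ITGB2. EPCAM, an epithelial adhesion protein, averaged 8.47 ± 0.60 in non-adherent cells and 9.82 ± 0.58 in adherent cells, a difference of -1.35 ± 0.32. VCAM1, an adhesion ligand of integrins, differed by -1.16 ± 0.25, and ITGB2, the chain shared by the leukocyte integrins, by -0.66 ± 0.19. The call of EPCAM was lost without animal 3 (limma adjusted p = 0.0678) or 4 (0.0521), and that of VCAM1 without animal 4 (0.0574) or 5 (0.0566). The call of ITGB2 was lost in 10 of 15 such fits (highest limma adjusted p 0.122) and when its probe sets were averaged (0.0945).

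CD47, the ligand that restrains phagocytosis, was higher by 0.43 ± 0.09 (limma adjusted p = 0.0108), a call lost without animal 3 (0.0585) or 5 (0.0543). PRKCA, a protein kinase C, was higher by 0.41 ± 0.08 (limma adjusted p = 0.00718). That call was lost without animal 5 (0.0509) and when its 7 probe sets were averaged (0.185, adjusted p = 0.0641). A further 3 partners, singled out after their values were seen, were among the 16 not called. IGSF8, which binds CD9 and CD81, differed by -0.43 ± 0.17, and ITGB1, the main integrin chain of tetraspanin complexes, by -0.04 ± 0.10. ADAM10, the protease that TSPAN14 escorts, differed by 0.04 ± 0.07, with a 95% interval from -0.12 to 0.20.

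Among 5 measured genes of palmitoylation and traffic, which attach lipid to tetraspanins or sort them, 1 was lower and 0 were higher. This was ZDHHC7, a palmitoyltransferase, at 7.42 ± 0.05 in non-adherent cells and 7.91 ± 0.16 in adherent cells (SD, n = 5 each), with a log2 difference of -0.49 ± 0.09 and a limma adjusted p of 0.00415. Among 17 measured genes of vesicle release, 1 was higher and 3 were lower (23.5% called), with a median of -0.12. The called share over all named genes was 16.5%. HGS, a sorting subunit of multivesicular endosomes, was lower by a log2 difference of -0.52 ± 0.09 (limma adjusted p = 0.00241). The syndecan SDC4 was also lower, at -1.23 ± 0.32 (limma adjusted p = 0.0236), a call lost in 6 of 15 fits that left out an array or an animal (highest adjusted p 0.0872). RAB11A, a GTPase of recycling endosomes that completes the count, was lower at -0.38 ± 0.10, a call lost in 8 of those 15 fits (highest adjusted p 0.107) and when its probe sets were averaged (-0.14, adjusted p = 0.173). RAB7A, the GTPase of late endosomes, was higher by 0.44 ± 0.08 (limma adjusted p = 0.00429). Averaged over its 2 probe sets, RAB7A differed by -0.21 and was not called (adjusted p = 0.327), so its direction rests on 1 probe set.

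**Figure D4:**
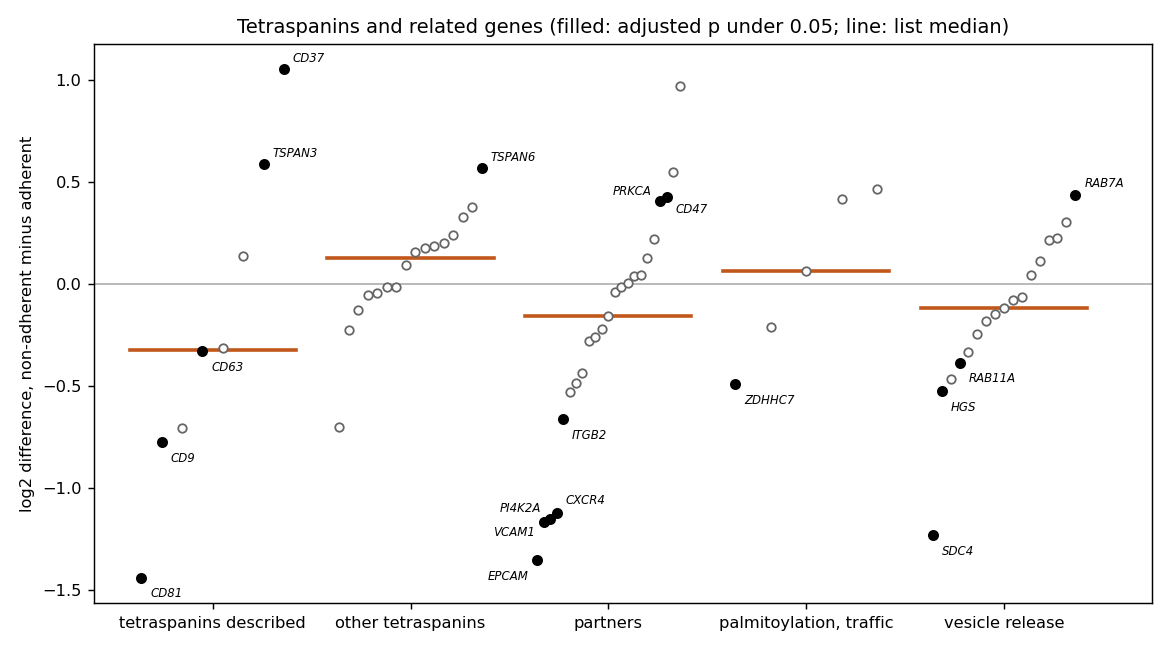
Each point is a gene's log2 difference, non-adherent minus adherent (vertical axis), in 5 gene lists, with filled points for an adjusted p below 0.05 and a line at each list's median. The tetraspanins described hold 5 filled points of 8, the other tetraspanins 1 of 16 and the partners 7 of 23. Over all named genes, 16.5% were called.

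Markers of cell types that carry tetraspanins moved as follows, and their part in the results was not tested. For comparison, 16.5% of all named genes were called. Of 10 dendritic cell markers, 7 were higher and 0 lower, with a list mean of 6.80 to 8.09 on non-adherent arrays and 5.77 to 6.00 on adherent arrays. LAMP3 (log2 difference 3.33 ± 0.42) and CCL22 (3.18 ± 0.32) had the lowest p among them. Of 6 B cell markers, 1 was higher (16.7% called). This was FCRLA, by 0.38 ± 0.12 (limma adjusted p = 0.0439, lost in 11 of 15 fits that left out an array or an animal). The B cell list mean ran from 5.42 to 5.65 on non-adherent arrays and from 5.26 to 5.58 on adherent arrays. Of 12 epithelial markers, 0 were higher and 1 lower, EPCAM, and the list mean was 5.30 to 5.49 on non-adherent arrays and 5.35 to 5.67 on adherent arrays. None of 8 platelet markers was called, the lowest p belonging to GP1BA (0.23 ± 0.09, limma adjusted p = 0.093). Likewise 0 of 10 T and NK cell markers were called (CD28 had the lowest p, at -0.30 ± 0.11) and 0 of 6 neutrophil markers (S100A8, 0.35 ± 0.28). At an unadjusted limma p under 0.05 there were 2 B cell, 1 epithelial, 2 platelet, 1 T or NK cell and 0 neutrophil markers. Of 11 macrophage markers, 2 were higher, CD163 by 1.51 ± 0.44 and MSR1 by 0.96 ± 0.26, and 1 was lower, PPARG, by -0.64 ± 0.14. CD163 (highest limma adjusted p 0.139) and MSR1 (0.123) lost their calls in 13 and 12 of 15 fits that left out an array or an animal, and PPARG without animal 4 (0.0513). Without the adherent array of animal 1, 7 of the 11 macrophage markers were called, 6 higher and 1 lower, with CD163 at 1.99 (limma adjusted p = 3.88e-05) and MSR1 at 1.24 (9.53e-05). That fit called 3067 of all 13755 named genes, against 2270 with all arrays. At most 1 of the 11 was called in 12 of the 15 fits that left out an array or an animal.

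The array profiles most like those of CD81, CD9 and CD63 were sought among all named genes by the root mean square distance over 10 arrays, after each gene's mean was subtracted. For CD81 these were TMEM43 at 0.143, SNN at 0.154 and CRKL at 0.178 log2 units. Their log2 differences were -1.51 ± 0.23, -1.40 ± 0.14 and -1.25 ± 0.15, although CRKL differed by -0.47 when its probe sets were averaged. For CD9, by its main probe set only, they were GPR75 at 0.186, HSD17B8 at 0.19 and LONRF3 at 0.192. For CD63 they were PHOX2A at 0.0712, KLHDC4 at 0.0766 and RRP1B at 0.0799. The distances were smaller for CD63, whose values varied least across the arrays, so they do not rank likeness between the 3 genes.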

How the data were processed

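RNA was profiled on 10 Affymetrix Snowball pig arrays, 5 of non-adherent and 5 of adherent cells. The authors deposited log2 probe set values; RMA and Partek are named, without versions or order, per the submitters' processing notes. No source used here says if both array sets went through 1 normalization. Of 47845 probe sets, 26426 had 1 gene symbol, 0 several and 21419 none here. Array controls stayed in the tests over all probe sets. Where a gene had several probe sets, the brightest by its mean over 10 arrays stood for it.

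The 2 groups were compared in limma 3.58.1 (R 4.3.3; lmFit, eBayes, 2-sided, Benjamini-Hochberg over 13755 genes, threshold 0.05), after a check on simulated data. Pairs of genes or probe sets were compared by exact permutation over 252 arrangements, which ignored the pairing by animal. Arrays are paired by animal, since each pig is in both groups, and residuals of same-numbered arrays correlated at 0.116 to 0.398 across genes. The lowest value was that of animal 1, whose non-adherent array matched the adherent array of animal 2 best. Alternatives used the animal as a fixed or random block, left out arrays or animals, and changed the scaling, level filter, variance model, array weights and probe set summary. Comparisons of 2 probe sets of a gene, and scalings without control rows, were added after the data were seen. The number of arrays limits the precision.

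The genes and gene lists were chosen with earlier results of these data known. The text names all tetraspanins sought and, per list, up to 2 called genes per direction by lowest p, or the lowest p where none was called. It also names the 3 nearest profiles of CD81, CD9 and CD63, and some genes marked as named after their values were seen. Figures were drawn with matplotlib 3.10.9.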

Additional observations from a re-analysis of the deposited data

Results flagged for a closer look

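The adherent CD81 value of animal 1, 9.79, lay far above the other adherent values, of which the next was 8.91. The gap was 0.784 of the group's range, past Dixon's critical value of 0.71 for 5 samples. Among 22 groups of 5 tested, 1 passed, and chance passes about 1 in 20. Without that array CD81 still differed, by -1.23 (limma adjusted p = 1.4e-05).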

How the results depend on the processing

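CD81, CD37 and TSPAN3 kept their direction and their call under all 25 alternatives, and CD53 stayed uncalled under them. Leaving out 1 array or 1 animal gave 1119 to 3067 called genes, 2289 to 6511 called probe sets, 3 to 7 called tetraspanins of 8 and 7 to 16 called genes among the 61 related genes. The low count of 3 tetraspanins came without animal 3 or animal 5, when CD9 and CD63 were lost. Calls over all named genes also fell in those fits, to 1119 and 1251, from 2270 with all arrays. Leaving out arrays or animals gave pair gaps of -0.773 to -0.532 for CD81 minus CD9, -1.20 to -0.897 for CD81 minus CD63 and 0.747 to 1.09 for CD37 minus CD53, with the calls lost in 4, 3 and 7 of those 15 repeats. Repeats without both arrays of an animal had only 70 arrangements, which raised the smallest possible p. With the animal as a replicate block, 5 tetraspanins were called, with TSPAN14 in place of CD63. The sign-flip test within animals gave gaps of -0.665, -1.11 and 0.915, each with an adjusted p of 0.0625, the smallest it allows. The CD37 minus CD53 gap was 0.879 after quantile normalization and 0.8735 when that was done without control rows, both with an adjusted p of 0.0714. TSPAN14 was also called with a random animal effect, with centred arrays, among probe sets above the median level (where CD151 was not tested) and with array weights. Directions reversed, without a call in the reversed direction, for the other CD9 probe set (-0.121 to 0.0489 with an array or animal left out), ITGB1 (-0.134 to 0.0418, and 0.0351 with array weights), ADAM10 (-0.000238 to 0.0721), and, with the mean of probe sets, RAB7A (-0.214) and GP1BA (-0.00341). The cause of these changes was not tested. The dim probe sets of CD151 and TSPAN6 limit what can be said of those genes, since no detection calls were used here.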

Other observations

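TSPAN2 and ITGA4, chosen after their values were seen, differed in the same unusual array. TSPAN2, a tetraspanin outside the genes described above, read 6.92, 6.63, 7.54, 6.22 and 6.82 in non-adherent animals 1 to 5, against 9.63, 7.01, 7.62, 6.88 and 6.49 in adherent cells. Its log2 difference was -0.70 ± 0.51 (limma adjusted p = 0.383) with all arrays and -0.18 (0.68) without the adherent array of animal 1. ITGA4, an integrin chain, read 8.68, 8.90, 9.02, 8.37 and 8.63 in non-adherent animals 1 to 5, against 9.62, 7.64, 7.43, 7.34 and 6.73 in adherent cells. Its log2 difference was 0.97 ± 0.43 and not called (limma adjusted p = 0.152). Without that array it was 1.44 (adjusted p = 0.000407).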
